A study of Bos grunniens with 18 samples.

Results

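MicroRNAs (miRNAs) of the yak testis were compared between animals of 18 months (Y18M) and animals of 6 months (Y6M), using every miRNA listed for the 3 small RNA libraries of each age. These are 6 of the 18 libraries of the study, which also holds rRNA-depleted libraries and an age of 4 years (Y4Y). The 9 yaks (Bos grunniens) were healthy males of a single cooperative, anaesthetised with Jingsongling in the same way at every age, and the tissue was frozen after castration. Age was the only factor that separated the groups. With 3 animals and 3 small RNA libraries per age, p values measure the spread between animals. The sample titles gave the ages used here. A separate label called the 18-month samples adulthood and the 6-month samples adolescence, but called the 4-year samples infancy, and it was not used for grouping.

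The table lists 1536 miRNA entries, of which 558 are classed as existing and carry cattle names with the prefix bta. A further 717 are classed as known and carry family names with the suffix x, y or z, which the labels do not explain. The remaining 261 carry running numbers in place of a miRNA name and are called unnamed here. There were 33 sequences that stood under more than 1 name. Some entries of the known class also repeat a cattle-named sequence apart from bases at its ends, so entries are not all separate miRNAs. The 6 libraries held 4249724 to 9682475 counts, lowest in Y18M replicate 1. A filter on low counts left 57.4% of the entries for testing. Levels below are CPM, counts scaled to a common total of the tested miRNAs by TMM, so they are shares of the miRNA pool. Fold changes are log2 of 18 months over 6 months ± SE, and adjusted p values are from edgeR over all tested entries, with n = 3 per age.

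The tissue label was checked in the rRNA-depleted libraries of the same titles. Of 16732 genes tested there, 32.8% were called higher and 27.2% lower at 18 months. Levels of marker genes are CPM of each library's gene total, with no TMM scaling. Sertoli cell markers summed to 448, 1579.6 and 849 CPM at 18 months, against 4926, 4462 and 4299.6 CPM at 6 months, with 7 of 8 called lower and most of the sum at 6 months from INHA, an inhibin subunit. The other one, CLDN11, a claudin of Sertoli cell junctions, was called higher, at 220.4, 392 and 371.2 CPM at 18 months, against 3.62, 15.9 and 2.81 CPM at 6 months. Leydig cell markers summed to 2668, 6982 and 5699 CPM at 18 months, against 18923, 13951 and 12280.0 CPM at 6 months. Markers of haploid germ cells, such as the protamines, summed to 2758, 191 and 1193 CPM at 18 months, against 1.68, 2.94 and 3.66 CPM at 6 months. Markers of the epididymis and efferent duct, the neighbouring ducts, summed to 244, 251 and 360.4 CPM at 18 months, against 22, 21.7 and 16.9 CPM at 6 months. Of the 4 tested, DEFB119, a beta-defensin, and EPCAM, an epithelial adhesion protein, were called higher and ESR1 and LCN2 lower, while PAX8 was under 1 CPM in all 6 libraries. DEFB119 stood at 156, 207 and 278 CPM at 18 months, against 0, 0.0382 and 0.037 CPM at 6 months. In bulk tissue a smaller number of cells of a type and less RNA per cell cannot be told apart, and this holds for every comparison below.

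A miRNA is a short RNA cut from a hairpin precursor, which gives a 5p and a 3p arm. It guides an Argonaute protein to messenger RNAs that pair with its seed, bases 2 to 8 from the 5′ end, and lowers their stability or translation. In the mammalian testis the miR-34 and miR-449 family is known to be abundant in meiotic and haploid germ cells, and male mice that lack both of its gene clusters are infertile. Families that share a seed are expected to share many targets, so sequences are shown by seed.

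The sequences below carry the main results, written 5′ to 3′ as deposited (T in place of U) with the seed in capitals. The miR-34 and miR-449 family shares the seed GGCAGTG, and its cattle-named members are shown first.
bta-miR-34c: aGGCAGTGtagttagctgattg
bta-miR-34b: aGGCAGTGtaattagctgattg
bta-miR-34a: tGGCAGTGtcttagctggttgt
bta-miR-449a: tGGCAGTGtattgttagctggt
bta-miR-449b: aGGCAGTGtattgttagctggc
The 5 tested sequences with the seed ACTGTGC are 1 entry of the known class and 4 unnamed entries, and they were higher at 18 months in every case.
miR-6526-z: tACTGTGCcttgaatgggtatg
unnamed sequence 1: tACTGTGCcttgaatgggtatt
unnamed sequence 2: tACTGTGCcctggatgggtag
unnamed sequence 3: tACTGTGCtgcagctgggtaga
unnamed sequence 4: tACTGTGCcctgtatgggtag
Near-identical pairs that differed in their response are shown next. Substitutions name the base of the first sequence of the pair, its position counted from 1 at the 5′ end, and the base of the second.
bta-miR-146a: tGAGAACTgaattccataggttgt
bta-miR-146b: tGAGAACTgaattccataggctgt
bta-miR-99a-5p: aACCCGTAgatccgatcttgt
bta-miR-100: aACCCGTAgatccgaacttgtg
bta-miR-10b: tACCCTGTagaaccgaatttgtg
bta-miR-10a: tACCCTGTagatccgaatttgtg
bta-miR-200c: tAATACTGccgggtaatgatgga
bta-miR-200b: tAATACTGcctggtaatgatg
From bta-miR-146a to bta-miR-146b the change is T21C, from bta-miR-99a-5p to bta-miR-100 it is T16A with 1 more base at the 3′ end, from bta-miR-10b to bta-miR-10a it is A12T, and from bta-miR-200c to bta-miR-200b it is G11T with 2 bases fewer at the 3′ end. None of these lies in the seed. Where members differ by 1 base, a read with a sequencing error can count for the wrong member, so levels of the rarer member of each pair are uncertain. The following are 2 of the sequences with the smallest p among those that were lower at 18 months, and 1 of the group that includes miR-507 and miR-513.
bta-miR-92b: tATTGCACtcgtcccggcctcc
bta-miR-148a: tCAGTGCActacagaactttgt
bta-miR-507b: tGATTGGTacttcttagagtgga
Sequences 5 to 7 of the unnamed class were among the 10 smallest p of the higher entries, and sequence 8 was the only unnamed entry that was lower.
unnamed sequence 5: tGAGCACAcctgcctgagcaga
unnamed sequence 6: tGGTGACGtctgtggagcc
unnamed sequence 7: aTTCCAAGgcttgccattcatc
unnamed sequence 8: aTACAAGGacaatttctttct

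The miRNA pool differed widely between the ages. Of the tested entries, 457 were called (51.9%), of which 255 were higher at 18 months (28.9% of those tested) and the others lower (22.9%), and 511 had no overlap between the animals of the 2 ages (58%). These shares are the background against which the counts below are read. The median over all tested entries was 0.12. A change of at least 2-fold was fitted for 348 of the called entries, and 215 of these were higher. At least 10-fold was reached by 96 of the higher entries and by 2 of the lower entries, miR-665-x and bta-miR-490. The second, named for this count after its values were seen, stood at 1.3, 4.5 and 0.872 CPM at 18 months, against 43.3, 36.1 and 24.2 CPM at 6 months (-3.89 ± 0.996, adjusted p = 0.00946), and its value was -4.97 without Y18M replicate 2. Of the 96 higher entries, 52 were unnamed, 68 lay under 10 CPM and 15 were of the existing class, which held 1 of the lower entries. Among all tested entries 47 had no count at 6 months. These passed the filter through an older age alone, and their fitted values rest on zeros.

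The direction of the calls varied with the level. Among the 83 entries over 1000 CPM, 13 were higher (15.7%) and 36 lower (43.4%) at 18 months. Among those under 10 CPM, 139 were higher (32.1%) and 48 lower (11.1%). The filter on low counts kept an entry that was high at 1 age alone, so the second count includes entries that had to differ to be tested. In the existing class 86 of 388 tested entries were higher (22.2%) and 112 were lower (28.9%). This balance depended on which entries were fitted, since the existing class fitted alone had 109 higher and 96 lower of 390 tested. In the known class 105 of 406 were higher (25.9%) and 89 lower (21.9%).

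**Figure D1:**
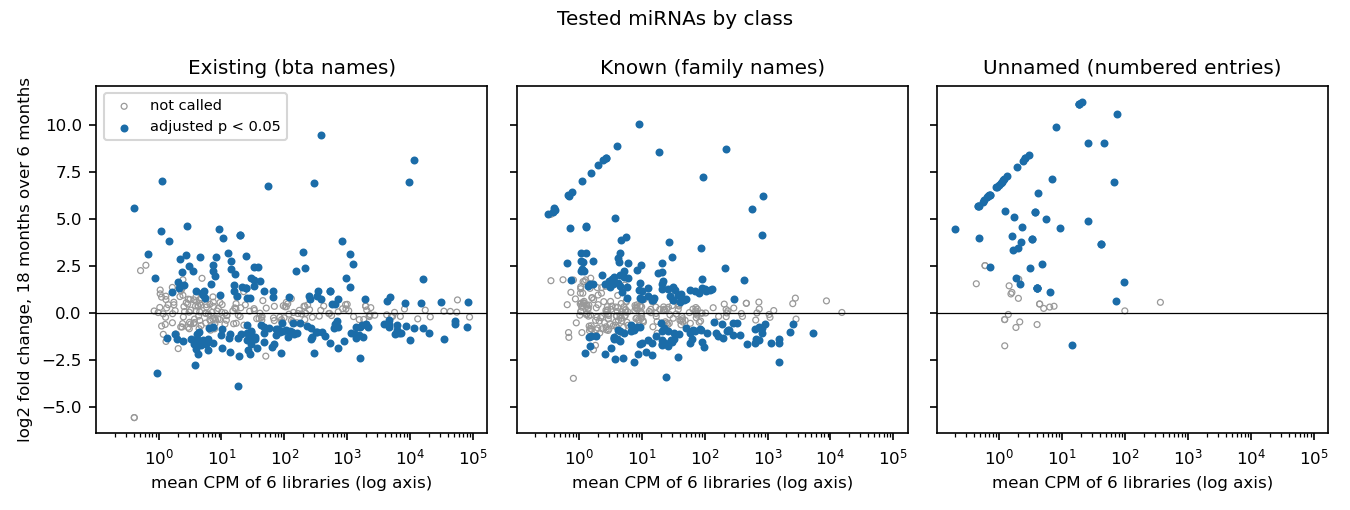
Log2 fold change of each tested miRNA (18 months over 6 months) against its mean level in the 6 libraries (CPM, log axis), by class of entry, with called entries filled. The existing class holds 86 higher and 112 lower entries, and the unnamed class 64 higher and 1 lower. Fitted alone, the existing class had 109 higher and 96 lower.

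The miR-34 and miR-449 family was higher at 18 months in every tested entry. Of its 12 entries 11 were tested and all 11 rose, with a median log2 fold change of 8.11, or 6.71 when entries without counts at 6 months took 3 counts for that age as a floor. The family summed to 54952, 3433 and 19945 CPM at 18 months, against 49, 153 and 130.2 CPM at 6 months. It thus made up more of the miRNA pool in each 18-month animal than in any 6-month animal, and the 18-month animals differed by over 10-fold among themselves.

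Most of that sum was bta-miR-34c, which in mice acts in germ cells redundantly with its relatives. It stood at 48884, 2880.2 and 17369.9 CPM at 18 months, against 35, 116 and 99.8 CPM at 6 months (8.11 ± 1.02, adjusted p = 0.000364). Its neighbour in the same precursor cluster, bta-miR-34b, was far rarer at 221.2, 15.3 and 87.9 CPM at 18 months, against 0.272, 1.48 and 1.2 CPM at 6 months (6.71 ± 0.95, adjusted p = 0.000554). They differ at a single base (from bta-miR-34b to bta-miR-34c, A11G), so the level of bta-miR-34b is uncertain in the way given above. The log2 ratio of bta-miR-34c to bta-miR-34b was 7.65 ± 0.13 at 18 months and 6.05 ± 0.04 at 6 months (SD, n = 3). The entry miR-34-y stood at 3251, 331 and 1510.3 CPM at 18 months, against 12.1, 31.8 and 25.3 CPM at 6 months (6.20 ± 0.78).

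The miR-449 members lie at another locus in human. Their main member bta-miR-449a stood at 1518, 155.3 and 597 CPM at 18 months, against 0.545, 1.26 and 1.34 CPM at 6 months (9.45 ± 0.90, adjusted p = 0.000157). The entry miR-449-y had 278 counts at 18 months and none at 6 months, so it was at least 129-fold higher against the floor of 3 counts. Of bta-miR-449b there were 14 counts at 18 months and none at 6 months, at least 6.49-fold higher. The entry miR-449-x had 561 counts at 18 months and 2 counts at 6 months, a ratio of 390 with a 95% counting interval of 107.5 to 3231. These bounds reflect counting error alone. The fitted value of miR-449-x was 8.56 ± 1.31, with 7.29 without Y18M replicate 1, 9.15 without Y18M replicate 2 and 11.10 without Y6M replicate 2.

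The member best known outside the germ line is bta-miR-34a, induced by p53 in human and mouse. Its fitted value was the lowest of the family, where those of members without counts at 6 months rest on zeros. The level of bta-miR-34a was 14.1, 2.11 and 8.03 CPM at 18 months, against 0.681, 0.948 and 1.34 CPM at 6 months (2.98 ± 0.61, adjusted p = 0.00328). All 9 tested sequences with the seed GGCAGTG rose, with fitted values between 2.98 and 9.45. They are not 9 separate miRNAs. The entries miR-34-x and miR-34-z are bta-miR-34c with more bases at the 3′ end. In the same way miR-449-x and miR-449-z extend bta-miR-449a. Without Y18M replicate 1 the values were 6.85 for bta-miR-34c, 5.59 for bta-miR-34b, 2.27 for bta-miR-34a, 8.39 for bta-miR-449a and 5.25 for miR-34-y, and each was still called.

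**Figure D2:**
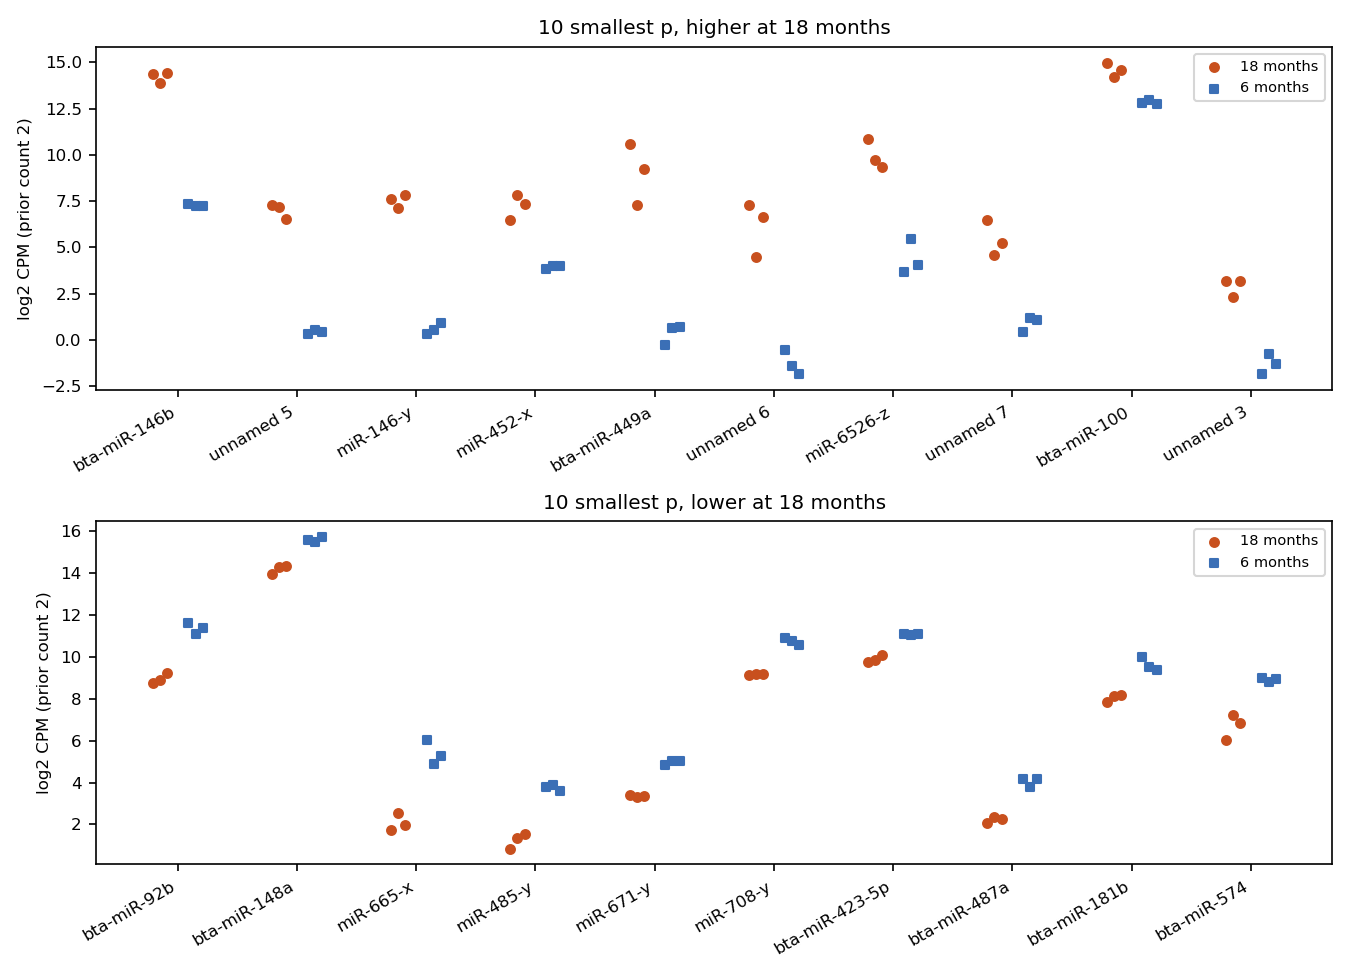
Levels by library (log2 CPM, prior count 2) of the 10 miRNAs with the smallest p in each direction, with 18-month animals as circles and 6-month animals as squares. In each of the 20 the animals of the 2 ages do not overlap, and bta-miR-449a and unnamed sequence 6 spread more widely at 18 months than bta-miR-146b does.

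The smallest p of all belonged to bta-miR-146b, one of a pair of miRNAs that act in a feedback on Toll-like receptor and NF-κB signalling through TRAF6 and IRAK1. It stood at 21240.4, 14851 and 22013 CPM at 18 months, against 165, 152 and 148 CPM at 6 months (6.96 ± 0.21, adjusted p = 1.23e-08). Unlike the miR-34 family it was nearly level across the 18-month animals. The rarer entry miR-146-y was as steady, at 194.9, 139.8 and 226 CPM at 18 months, against 0.953, 1.16 and 1.61 CPM at 6 months (7.22 ± 0.32, adjusted p = 1.91e-07).

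Its near-identical relative bta-miR-146a rose less, at 1294, 1508 and 1609.5 CPM at 18 months, against 612, 431.98 and 206.1 CPM at 6 months (1.82 ± 0.35, adjusted p = 0.00226). The log2 ratio of bta-miR-146b to bta-miR-146a was 3.70 ± 0.37 at 18 months and -1.29 ± 0.73 at 6 months (SD, n = 3), so the more abundant member was bta-miR-146b at 18 months and bta-miR-146a at 6 months. This ratio was 1 of 11 compared by exact permutation, of which 10 had no overlap between the ages. The 11 pairs were chosen with earlier results of these data known, so the count of 10 reflects that choice. For 3 against 3 animals the two-sided exact p cannot go below 0.1. The ratio of bta-miR-146b to bta-miR-146a took that value (0.11 after Benjamini-Hochberg adjustment over the 11). In all, 5 of 5 tested miR-146 entries rose, of which miR-146-x and miR-146-z differ from bta-miR-146a only at their ends. Without Y6M replicate 1 the value of miR-146-z was 2.91, against 2.25 ± 0.48 with all animals.

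A second near-identical pair diverged among the most abundant miRNAs. The level of bta-miR-100, which targets the kinase mTOR in human cells, was 32492, 18912 and 24395 CPM at 18 months, against 7081, 7920.3 and 6982 CPM at 6 months (1.79 ± 0.19, adjusted p = 0.000214). That of bta-miR-99a-5p, with the same seed, was 42846, 70669 and 53549 CPM at 18 months, against 54965, 53736 and 55002 CPM at 6 months (0.03 ± 0.18, adjusted p = 0.907). The 18-month animals all lay above the 6-month animals for bta-miR-100 and on both sides of them for bta-miR-99a-5p. Their log2 ratio (bta-miR-100 over bta-miR-99a-5p) was -1.15 ± 0.75 at 18 months and -2.90 ± 0.12 at 6 months (SD, n = 3, exact permutation p = 0.1, the smallest possible). Both belong to a list of 22 tested miR-10, miR-99, miR-100, miR-125 and miR-196 entries, of which 3 rose and 3 fell (median -0.15).

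The same list held bta-miR-10a and bta-miR-10b, which lie in HOX gene clusters. The rarer bta-miR-10a fell to 301.9, 619 and 488 CPM at 18 months, against 1975, 853 and 1129 CPM at 6 months (-1.49 ± 0.34, adjusted p = 0.00514). The abundant bta-miR-10b fell to 44851, 40194 and 45792 CPM at 18 months, against 62833, 55137 and 57522 CPM at 6 months (-0.42 ± 0.11, adjusted p = 0.0108), and its call was lost without Y18M replicate 3 (adjusted p = 0.0767) and when any 1 of the 6-month animals was left out (0.0515 to 0.0736).

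The miR-507, miR-508 and miR-513 entries belong to an X-linked cluster in human, a fast-evolving group that is transcribed mainly in testis. Of 7 tested entries 6 rose (median of the 7, 3.77). The other entry, miR-507-z, did not pass with all animals (1.04 ± 0.59) and was called without Y6M replicate 2 (1.88). The group summed to 9803, 2429 and 3217 CPM at 18 months, against 471.2, 414 and 418 CPM at 6 months. Among them bta-miR-507-3p stood at 3659, 1141 and 1255 CPM at 18 months, against 265, 231 and 196.5 CPM at 6 months (3.13 ± 0.43, adjusted p = 0.000466). The level of bta-miR-507b was 2892, 688 and 961 CPM at 18 months, against 113, 99.3 and 116 CPM at 6 months (3.79 ± 0.49, adjusted p = 0.000382). In both, Y18M replicate 1 was the highest and every 18-month animal lay above every 6-month animal. Without that animal the values were 2.36 for bta-miR-507-3p, 2.89 for bta-miR-507b, 3.09 for miR-507-y, 2.82 for miR-513-x and 2.66 for miR-513-y, all still called.

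The seed ACTGTGC joined entries of different classes that moved together. The most abundant, miR-6526-z, stood at 1865, 856 and 652 CPM at 18 months, against 12.3, 43.3 and 16.6 CPM at 6 months (5.54 ± 0.58, adjusted p = 0.000214). The 4 unnamed entries had fitted values between 3.44 and 5.36. Of these, unnamed sequence 1 stood at 102, 79.3 and 47.8 CPM at 18 months, against 2.32, 11.9 and 3.88 CPM at 6 months (3.63 ± 0.55, adjusted p = 0.000775), and its sequence is nearly identical to that of miR-6526-z, so their reads may be split. Unnamed sequence 3 is listed under 2 numbers with the same counts. In all 5 each 18-month animal lay above each 6-month animal. Without Y6M replicate 2 the values were 6.42 for miR-6526-z, 4.73 for unnamed sequence 1, 6.26 for unnamed sequence 2 and 6.53 for unnamed sequence 3, and without Y18M replicate 1 that of miR-6526-z was 4.93.

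The miR-183, miR-96 and miR-182 cluster, known from sensory cells, rose in 4 of 4 tested entries (median 2.68). Its most abundant member bta-miR-182 stood at 116, 25.9 and 49.4 CPM at 18 months, against 11, 13.6 and 11.1 CPM at 6 months (2.41 ± 0.47, adjusted p = 0.00242). Without Y18M replicate 1 its value was 1.62, that of bta-miR-183 was 1.61 and that of bta-miR-96 was 1.98, while miR-182-x was no longer called (2.72, adjusted p = 0.11). That last entry (4.57 ± 1.41 with all animals, 5.25 without Y18M replicate 2) also lost its call without Y6M replicate 1, 2 or 3 (0.0526 to 0.0693).

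A similar order of animals was seen for bta-miR-375, which is enriched in pancreatic islets and other secretory epithelia. It stood at 1184.5, 115 and 465.4 CPM at 18 months, against 4.22, 5.8 and 4.68 CPM at 6 months (6.90 ± 0.78, adjusted p = 0.000259), and its fold change was 5.83 without Y18M replicate 1. The entry miR-375-y had no counts at 6 months and was at least 57.5-fold higher at 18 months against the floor. The list that holds both, of Sertoli-enriched and epithelial miRNAs, had 7 of 11 entries higher and 1 lower. The summed markers of the epididymis and efferent duct were higher at 18 months as well, carried by DEFB119 and EPCAM. Of the 4 tested, these 2 were called higher, and the other 2, ESR1 and LCN2, were called lower. The part of the ducts in the values of this list and of the miR-200 entries was not tested. The same list also holds bta-miR-204, known from retina and kidney, at 1377, 1559 and 1831 CPM at 18 months, against 549.9, 569.5 and 739 CPM at 6 months (1.36 ± 0.23, adjusted p = 0.00113).

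A different order of the 18-month animals appeared in miR-224 and miR-452, which lie in an intron of GABRE in human. All 6 tested entries rose (median 2.58), and they summed to 1193, 3839 and 2929 CPM at 18 months, against 459, 448 and 404 CPM at 6 months. The level of bta-miR-224 was 954, 3055 and 2462 CPM at 18 months, against 370.5, 364 and 326 CPM at 6 months (2.61 ± 0.36, adjusted p = 0.000522). Here Y18M replicate 2 was highest and replicate 1 lowest, the reverse of the miR-34 family. The value of bta-miR-452 was 2.21 ± 0.42, or 1.53 without Y18M replicate 2.

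The pair miR-221 and miR-222, which in mouse spermatogonia hold back the receptor KIT, rose in 6 of 6 tested entries (median 1.33). Their 5 sequences with the shared seed GCTACAT all rose. They are not 5 separate miRNAs, since miR-221-y, miR-221-z and miR-222-y differ from bta-miR-221 or bta-miR-222 only at the 3′ end. The level of bta-miR-221 was 44.3, 58.2 and 48.2 CPM at 18 months, against 18.7, 17.8 and 8.57 CPM at 6 months (1.74 ± 0.31, adjusted p = 0.00162). The level of bta-miR-222 was 27, 71.2 and 47.3 CPM at 18 months, against 20.2, 20.7 and 12.7 CPM at 6 months (1.44 ± 0.36, adjusted p = 0.00812), again highest in Y18M replicate 2. The low entry miR-221-z, at 2.75 ± 0.68, moved to 3.55 without Y6M replicate 1. The call of miR-221-y was lost without Y18M replicate 2 or 3 and without Y6M replicate 1 or 3 (adjusted p 0.0706 to 0.0966).

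Both miR-132 and miR-212, induced by the transcription factor CREB in neurons, rose in all 4 tested entries (median 1.66). Of these bta-miR-212 stood at 61.2, 29.3 and 46.9 CPM at 18 months, against 14.4, 11.1 and 13 CPM at 6 months (1.83 ± 0.30, adjusted p = 0.00113). The call of miR-212-y was lost without Y6M replicate 3 (adjusted p = 0.0545), and its value was 2.08 without Y6M replicate 2. The 18-month animals lay above the 6-month animals in every one of the 4.

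**Figure D3:**
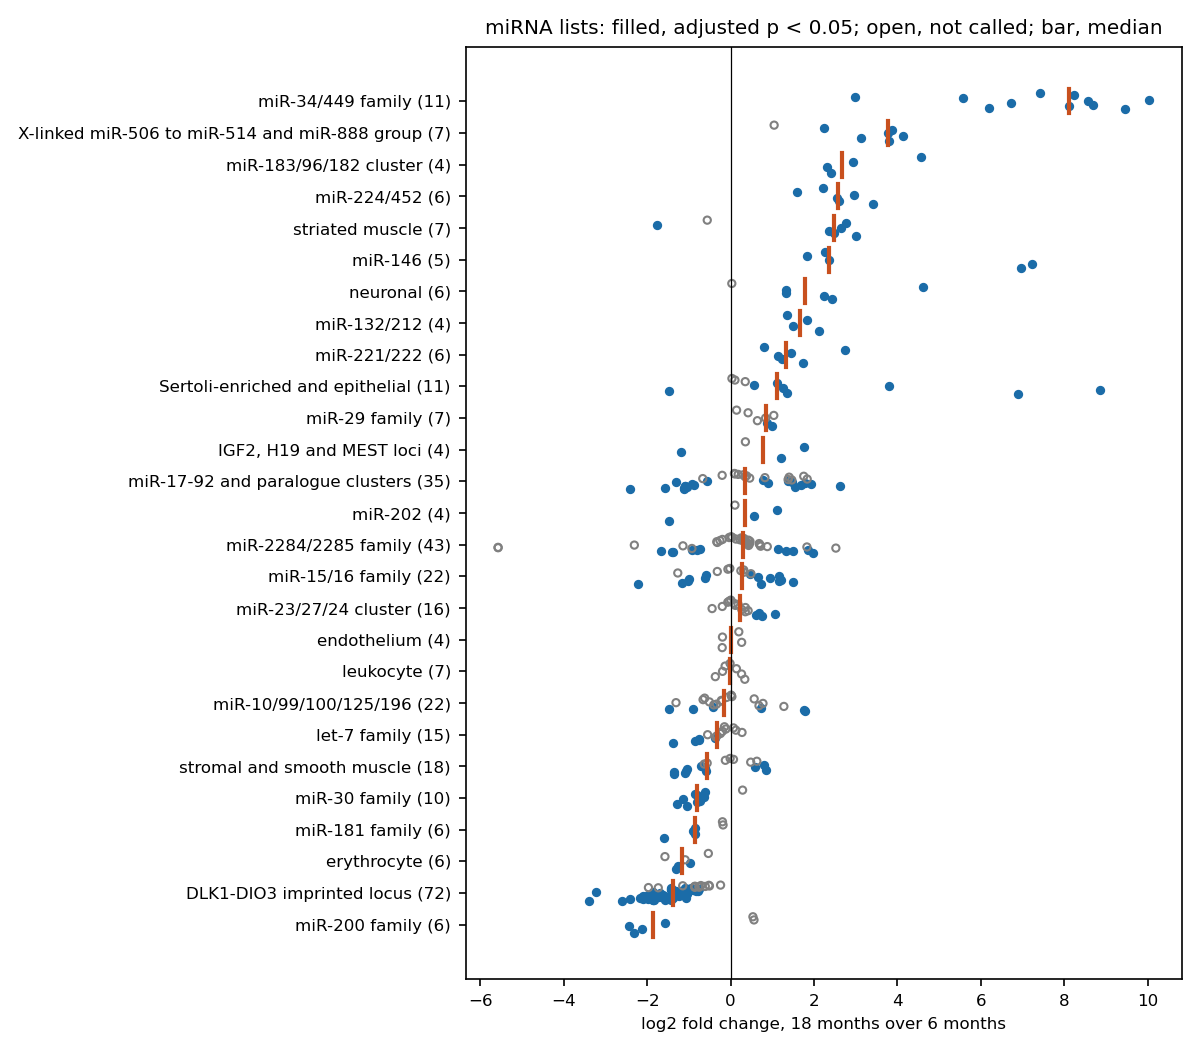
Log2 fold change (18 months over 6 months) of each tested member of the miRNA lists with at least 3 tested members (number in brackets), filled where called and open where not, with the median as a bar. The miR-34 and miR-449 family has the highest median (8.11) and the miR-200 family the lowest (-1.85).

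Among the miRNAs that were lower at 18 months, bta-miR-92b had the smallest p. This relative of miR-92a, itself a member of the miR-17-92 clusters known from proliferating cells, stood at 428, 482.6 and 605 CPM at 18 months, against 3171, 2208 and 2709 CPM at 6 months (-2.42 ± 0.19, adjusted p = 4.47e-05). The level of bta-miR-92a, which shares its seed and differs at T10C, G21C and T22C (from bta-miR-92a to bta-miR-92b), was 3103, 4963 and 4842 CPM at 18 months, against 9424, 8168 and 9920.2 CPM at 6 months (-1.09 ± 0.19, adjusted p = 0.00123). Over the 35 tested entries of the list of these clusters 9 rose and 11 fell (median 0.35), so the entries had no common direction. Their summed level was lower, at 11137, 11469 and 12645 CPM at 18 months, against 22720, 19023 and 22896 CPM at 6 months. The abundant entry bta-miR-19b stood at 696, 1041 and 817 CPM at 18 months, against 1822, 1767 and 1950.3 CPM at 6 months (-1.12 ± 0.17), while the low entry miR-18-x stood at 67, 12.2 and 27.7 CPM at 18 months, against 6.13, 4.95 and 6.16 CPM at 6 months (2.63 ± 0.52, or 1.76 without Y18M replicate 1).

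The abundant bta-miR-148a, which targets the DNA methyltransferase DNMT1 in human cells, fell to 16127, 20289 and 20917 CPM at 18 months, against 48932, 46435 and 54379 CPM at 6 months (-1.39 ± 0.13, adjusted p = 0.000161). It was among the 10 most abundant miRNAs and the 18-month animals lay close together. The same closeness was seen for bta-miR-423-5p, at 852, 929.7 and 1093 CPM at 18 months, against 2159.5, 2151 and 2179 CPM at 6 months (-1.17 ± 0.14, adjusted p = 0.000292), and for miR-708-y, at 554, 583 and 582 CPM at 18 months, against 1914, 1756 and 1495 CPM at 6 months (-1.59 ± 0.19, adjusted p = 0.000269). The GT-rich bta-miR-574 fell to 65.1, 149 and 114 CPM at 18 months, against 514.3, 451.1 and 497.4 CPM at 6 months (-2.15 ± 0.27, adjusted p = 0.000364).

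The miR-30 family, abundant in kidney and many other tissues, was lower in 9 of 10 tested entries (median -0.81). It summed to 38148, 36715 and 37564 CPM at 18 months, against 74825, 61791 and 77347 CPM at 6 months. Its most abundant member bta-miR-30e-5p stood at 13172, 13194 and 12445 CPM at 18 months, against 28154, 22332 and 30131 CPM at 6 months (-1.05 ± 0.14, adjusted p = 0.000381). The sums of the 18-month animals lay closer to one another than those of the 6-month animals, and the ages did not overlap.

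Members of the miR-181 family, known from lymphocytes, fell in 4 of 6 tested entries and none rose (median -0.85). The level of bta-miR-181a was 3823, 4577 and 4766 CPM at 18 months, against 9474, 7713 and 7385 CPM at 6 months (-0.90 ± 0.16, adjusted p = 0.00138), and that of bta-miR-181b was 228, 277 and 287 CPM at 18 months, against 1005, 738 and 655.05 CPM at 6 months (-1.60 ± 0.20, adjusted p = 0.000364). The log2 ratio of bta-miR-181b to bta-miR-181a was -4.06 ± 0.01 at 18 months and -3.37 ± 0.13 at 6 months (SD, n = 3).

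The let-7 family, regulators of developmental timing that are held back by LIN28, fell in 5 of 15 tested entries (median -0.33). They made up a large share of the pool at both ages, at 104826, 162807 and 131735 CPM at 18 months, against 176840.3, 172689.6 and 188899 CPM at 6 months. The level of bta-let-7f was 36863, 85304 and 57557 CPM at 18 months, against 99377, 93014 and 112008 CPM at 6 months (-0.76 ± 0.25, adjusted p = 0.0295), but its call was lost without Y18M replicate 3 (adjusted p = 0.109) and when any 1 of the 6-month animals was left out (0.0633 to 0.103). That of bta-let-7a-5p was 42244, 47241 and 44407 CPM at 18 months, against 41047, 43053 and 43667 CPM at 6 months (0.07 ± 0.11, adjusted p = 0.617).

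In the miR-200 family, which holds epithelial identity by repressing ZEB1 and ZEB2, 4 of 6 tested entries fell. The level of bta-miR-200b was 9.3, 5.48 and 4.19 CPM at 18 months, against 17.3, 44.8 and 31.2 CPM at 6 months (-2.31 ± 0.41, adjusted p = 0.00162). The level of bta-miR-200a was 56.2, 29.1 and 13.3 CPM at 18 months, against 90.7, 198 and 140.8 CPM at 6 months (-2.13 ± 0.50, adjusted p = 0.00627), with a value of -2.77 without Y18M replicate 1. Their relatives encoded in another cluster in human, bta-miR-200c (0.53 ± 0.36) and bta-miR-141 (0.56 ± 0.26), did not pass, and the animals of the 2 ages overlapped. Without Y18M replicate 1 bta-miR-141 was called higher (adjusted p = 0.0429). The log2 ratio of bta-miR-200b to bta-miR-200c was 0.86 ± 0.91 at 18 months and 3.55 ± 0.52 at 6 months (SD, n = 3, exact permutation p = 0.1, the smallest possible). The call of miR-200-x was lost without Y18M replicate 3 (adjusted p = 0.0603) and without Y6M replicate 2 (0.0681), and that of miR-200-y without Y18M replicate 2 or 3 or Y6M replicate 2 or 3 (0.0678 to 0.12). Without Y18M replicate 1 their values were -3.54 for miR-200-x and -2.47 for miR-200-y, against -2.45 ± 0.65 and -1.58 ± 0.49 with all animals, and without Y6M replicate 2 that of miR-200-x was -1.77.

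The imprinted DLK1-DIO3 locus, a large miRNA cluster expressed from the maternal chromosome, gave 59 lower and 0 higher of 72 tested entries (median -1.38). Of its members miR-665-x stood at 3.03, 5.63 and 3.66 CPM at 18 months, against 66.1, 28.9 and 38 CPM at 6 months (-3.41 ± 0.39, adjusted p = 0.000259) and miR-485-y at 1.51, 2.25 and 2.62 CPM at 18 months, against 13.6, 14.3 and 11.6 CPM at 6 months (-2.61 ± 0.30, adjusted p = 0.000259). Its entries summed to 6367, 14500.1 and 11549.8 CPM at 18 months, against 35644, 28668 and 17052 CPM at 6 months.

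Several of the most abundant miRNAs were not called. The level of bta-miR-26a was 59799.5, 98120.2 and 85286 CPM at 18 months, against 98547, 89776 and 97367 CPM at 6 months (-0.23 ± 0.17, adjusted p = 0.265), although without Y18M replicate 2 it was called lower (adjusted p = 0.0361). That of bta-miR-27b was 29559.7, 39175 and 37521 CPM at 18 months, against 31721, 33891 and 35078 CPM at 6 months (0.08 ± 0.14, adjusted p = 0.661). That of bta-miR-125b was 45408, 89042 and 74705 CPM at 18 months, against 44062, 36331 and 50209 CPM at 6 months (0.68 ± 0.29, adjusted p = 0.0777), and it was called higher without Y18M replicate 1 (adjusted p = 0.0271). The most abundant miRNA at 18 months, bta-miR-143, rose to 99908, 86775 and 108891 CPM at 18 months, against 76672, 73389 and 47007 CPM at 6 months (0.58 ± 0.18, adjusted p = 0.0239).

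The gonadal miR-202, known in mouse from Sertoli cells and spermatogonia, has 4 tested entries, of which 2 rose and 1 fell. The abundant bta-miR-202 stood at 28599, 44294 and 39623 CPM at 18 months, against 25334, 22382 and 28049 CPM at 6 months (0.57 ± 0.19, adjusted p = 0.0292), and its call was lost without Y18M replicate 2 (adjusted p = 0.0631). The entry miR-202-y went the other way and stood at 213.9, 565 and 376.7 CPM at 18 months, against 1059, 974 and 1179 CPM at 6 months (-1.47 ± 0.29, adjusted p = 0.00285). A low entry, miR-202-z, stood at 10.6, 4.78 and 4.89 CPM at 18 months, against 3, 2.85 and 3.35 CPM at 6 months (1.12 ± 0.38), and its call was lost without Y18M replicate 1 or any 1 of the 6-month animals (0.0578 to 0.149).

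Lists of miRNAs known from other cell types did not move as a block. Endothelial miR-126 entries gave 0 calls of 4, with bta-miR-126-3p at 7342, 5314 and 6903 CPM at 18 months, against 6737, 8099 and 7575 CPM at 6 months (-0.20 ± 0.18, adjusted p = 0.375). Leukocyte entries (miR-142, miR-150, miR-155) gave 0 calls of 7, with a median of -0.01 and summed levels of 1703, 4658 and 2774 CPM at 18 months, against 5769, 2878 and 1369 CPM at 6 months. Their levels overlapped between the ages, and without Y6M replicate 1 bta-miR-142-3p was called higher (1.09, adjusted p = 0.0495).

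Erythroid miR-144, miR-451 and miR-486 entries fell in 3 of 6 cases and none rose. The levels of bta-miR-451 overlapped between the ages, at 92.3, 87.5 and 67 CPM at 18 months, against 188, 208.5 and 84.9 CPM at 6 months (-0.96 ± 0.33, adjusted p = 0.0351), and its call was lost without Y18M replicate 2 or 3 or Y6M replicate 1 or 2 (0.0565 to 0.205). Of the 5 erythroid marker genes in the rRNA-depleted libraries HBM was at 0 in all 6 and ALAS2 in all but 1. The summed erythroid markers stood at 83.2, 6.93 and 32.3 CPM at 18 months, against 0.403, 0.803 and 0.666 CPM at 6 months, led at 18 months by HEMGN, whereas the highest level of any HBA or HBB gene was 2.32 CPM.

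Striated muscle miRNAs were mostly higher at 18 months. Of 7 tested entries of miR-1, miR-133 and miR-499, 5 rose and 1 fell. The level of bta-miR-1 was 328, 279.8 and 448.98 CPM at 18 months, against 52.7, 121.6 and 31.9 CPM at 6 months (2.36 ± 0.42, adjusted p = 0.00162) and that of bta-miR-133a was 41.3, 29.4 and 59 CPM at 18 months, against 3.54, 8.85 and 3.48 CPM at 6 months (3.01 ± 0.42, adjusted p = 0.000522). Without Y6M replicate 2, the highest of the 6-month animals, the fold change was 3.18 for bta-miR-1 and 3.72 for bta-miR-133a. The summed smooth muscle marker genes ACTA2, MYH11, TAGLN and CNN1 stood at 167, 835 and 419 CPM at 18 months, against 128, 185 and 77.7 CPM at 6 months, with 2 of 4 called higher, against 32.8% of all tested genes. That sum was highest in Y18M replicate 2, where bta-miR-1 and bta-miR-133a were lowest of the 18-month animals. The part of smooth muscle in the miRNA values was not tested.

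The smooth muscle miRNA bta-miR-145 likewise rose, at 6225, 5384 and 6926 CPM at 18 months, against 3597, 4009 and 2755 CPM at 6 months (0.84 ± 0.20, adjusted p = 0.00598). In the list of stromal and smooth muscle miRNAs it belongs to, 3 of 18 entries rose and 8 fell. Those that fell were miR-199 and miR-214 entries, known from mesenchymal cells, such as bta-miR-199a-3p at 3537, 5623 and 4505 CPM at 18 months, against 12694, 8119.9 and 8033 CPM at 6 months (-1.08 ± 0.22, adjusted p = 0.0035). Beside this, the stroma and matrix marker genes summed to 269, 1113 and 575 CPM at 18 months, against 3036, 2720.0 and 2191 CPM at 6 months, with 7 of 7 called lower (27.2% of all tested genes were), and their part in the miRNA values was not tested.

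The neuronal miR-9 and miR-124 entries rose in 5 of 6 cases, with bta-miR-9-5p at 72.7, 30.8 and 64.7 CPM at 18 months, against 8.58, 15.8 and 6.69 CPM at 6 months (2.42 ± 0.39, adjusted p = 0.00104). Another miRNA known from brain, bta-miR-153, stood at 15.1, 8.72 and 13.1 CPM at 18 months, against 2.18, 2.11 and 2.01 CPM at 6 months (2.54 ± 0.28, adjusted p = 0.00022). The entries bta-miR-124a and bta-miR-124b share 1 sequence and so 1 set of counts. Ruminant miR-2284 and miR-2285 entries, a family expanded in cattle, showed 5 higher and 6 lower of 43 tested (median 0.29), fewer than the background share in both directions.

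Other families had fewer calls or calls in both directions. The miR-15 and miR-16 family, known for restraining the cell cycle, had 8 higher and 6 lower of 22 tested entries (median 0.28). The miR-29 family, which targets collagen messenger RNAs, had 2 higher and none lower of 7 (median 0.84, from 0.14 to 1.03, all above 0), with bta-miR-29b at 67.5, 95.6 and 91.6 CPM at 18 months, against 43.7, 53 and 43.5 CPM at 6 months (0.86 ± 0.19, adjusted p = 0.00515). The clusters of miR-23, miR-27 and miR-24 had 4 higher of 16 (median 0.22). The list of the imprinted IGF2, H19 and MEST loci had 4 tested entries, of miR-483 (IGF2) and miR-335 (MEST), and none of H19. Of these miR-335-x and miR-335-y were higher, bta-miR-483 was lower and bta-miR-335 was not called. The call of miR-335-x was lost without Y18M replicate 1 or 3 or any 1 of the 6-month animals (adjusted p 0.0544 to 0.223). That of miR-335-y was lost without Y18M replicate 1 or Y6M replicate 2 or 3 (0.0535 to 0.0617). The liver miRNA bta-miR-122 was not called, and the 1 tested entry of the pluripotency clusters, miR-371-x, stood at 5.62, 8.58 and 8.03 CPM at 18 months, against 1.23, 1.05 and 0.669 CPM at 6 months (2.90 ± 0.34, adjusted p = 0.000259).

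The unnamed class took a larger share of the pool at 18 months. Its 261 entries made up 0.296%, 0.127% and 0.162% of the counts at 18 months, against 0.0640%, 0.0606% and 0.0531% at 6 months. The ages did not overlap, and this sum uses every entry whether tested or not. How the entries of this class were defined is not given, and the part of that definition in the sum was not tested. Of the 87 entries that passed the filter 64 were called higher (73.6%), which are 53 distinct sequences, and 1 lower (1.15%). An entry that is seen at 1 age alone passed only through that age, so these shares do not describe all 261.

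The entry of this class with the smallest p was unnamed sequence 5, at 158, 144.7 and 92.7 CPM at 18 months, against 0.953, 1.16 and 1.07 CPM at 6 months (6.93 ± 0.30, adjusted p = 1.91e-07). The level of unnamed sequence 6 was 159, 22.2 and 99.6 CPM at 18 months, against 0.409, 0.105 and 0 CPM at 6 months (8.998 ± 0.94, adjusted p = 0.000214), or 8.35 without Y18M replicate 1 and 10.34 without Y6M replicate 1. That of unnamed sequence 7 was 87.8, 24.2 and 37.3 CPM at 18 months, against 1.09, 2 and 1.87 CPM at 6 months (4.88 ± 0.52, or 4.15 without Y18M replicate 1). The single lower entry was unnamed sequence 8, at 3.24, 9.28 and 7.5 CPM at 18 months, against 27.9, 22.7 and 17.1 CPM at 6 months (-1.74 ± 0.37, adjusted p = 0.00395).

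The 18-month animals differed from one another more than the 6-month animals did. The median SD of log2 CPM over the tested entries was 0.42 at 18 months and 0.25 at 6 months. Among the 255 higher entries Y18M replicate 1 was the highest of the 3 in 156 and replicate 2 the lowest in 158. Relative to the 6-month mean, the median log2 level of these entries was 2.32, 1.41 and 1.89 in replicates 1, 2 and 3. Among the lower entries it was -1.50, -0.93 and -1.05. The calls come from the same values, so their sign is fixed by the choice and the order of the animals is the measurement.

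That order was not the same in every list. For the miR-34 and miR-449 family the median over members was 7.23, 3.61 and 6.12 in replicates 1, 2 and 3. For miR-224 and miR-452 it was 1.47, 3.06 and 2.76, and for miR-221 and miR-222 it was 0.76, 1.77 and 1.37. For the miR-30 family it was -0.75, -0.80 and -0.76, nearly equal. For the DLK1-DIO3 locus it was -1.93, -0.96 and -1.19.

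In the rRNA-depleted libraries of the same titles the haploid germ cell markers, all 8 of which were called higher (32.8% of 16732 tested genes were), followed the order 1, 3, 2. The summed level of the meiotic germ cell markers did as well, at 996, 547 and 852 CPM at 18 months. At 6 months that sum was 7.25, 16.1 and 11.5 CPM, and 8 of 8 markers were called higher at 18 months. The order was seen in DMC1 but not in every marker. SYCP3 was nearly level across the 18-month animals, and SPO11 was highest in replicate 3. Sertoli, Leydig, stroma and smooth muscle sums followed the opposite order, lowest in replicate 1 and highest in replicate 2. The part of cell composition in the miRNA differences was not tested.

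**Figure D4:**
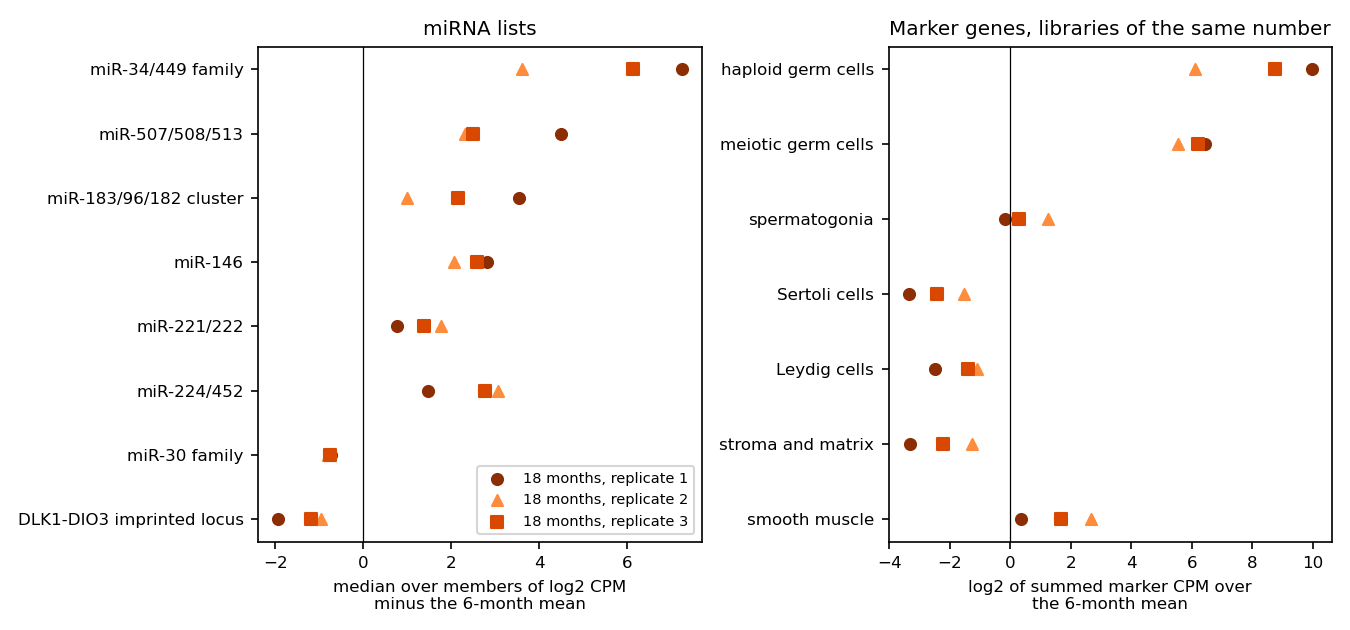
Left, for 8 miRNA lists, the median over tested members of log2 CPM minus the 6-month mean in each 18-month animal. Right, log2 of the summed CPM of marker genes over the 6-month mean in the rRNA-depleted libraries of the same number. Replicate 2 is lowest for the miR-34 and miR-449 family (3.61) and for haploid germ cell markers, and highest for miR-224 and miR-452 (3.06) and smooth muscle markers.

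Many miRNAs lie in introns of other genes, called host genes, and pairs listed from human were compared with the gene counts. Positions and strands of the pairs were not checked here. There were 47 pairs with a single listed host in which both were tested, over 31 hosts. Both were called in 14 of them, with 8 higher in both, 4 lower in both and 2 in opposite directions. Of the others, 15 had neither called, 10 had only the host called and 8 only the miRNA. Of all tested genes 59.9% were called in either direction. Across the 47 pairs Pearson's r of the log2 fold changes was 0.91 and Spearman's rho 0.52, given as a description, since pairs share hosts and libraries. The miR-34 and miR-449 pairs stood far from the rest, at 5.58 to 9.45 for the miRNAs and 6.98 and 8.73 for the genes. The next highest miRNA, bta-miR-224, was at 2.61. These outlying pairs weigh heavily in Pearson's r, which was not computed without them.

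The largest values belonged to the genes listed as hosts of miR-34 and miR-449. Whether miR-34b and miR-34c lie within BTG4 or only near it was not checked. BTG4 (ENSBTAG00000034346), an adaptor of the CCR4-NOT deadenylase known from mouse oocytes, had 736 counts at 18 months and 1 at 6 months, in Y6M replicate 1. Its ratio after scaling was 560 with a 95% counting interval of 100.1 to 22135, and its levels were 12.2, 2.19 and 9.89 CPM at 18 months, against 0.0422, 0 and 0 CPM at 6 months. CDC20B (ENSBTAG00000021959), which hosts miR-449 and is known from multiciliated cells, stood at 22.3, 5.3 and 12.9 CPM at 18 months, against 0, 0.217 and 0.0914 CPM at 6 months (6.98 ± 0.82, adjusted p = 0.000204), or 8.12 without Y6M replicate 2. In both genes Y18M replicate 1 was highest and replicate 2 lowest, the order of the miRNAs themselves.

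GABRE (ENSBTAG00000013548), a GABA receptor subunit that hosts miR-224 and miR-452, stood at 6.27, 62.7 and 30.6 CPM at 18 months, against 6.12, 5.72 and 8 CPM at 6 months (2.33 ± 0.68, adjusted p = 0.0162). It was highest in Y18M replicate 2, like its miRNAs, and in replicate 1 it did not exceed the 6-month range. Its value was 1.60 without Y18M replicate 2, and its call was lost without Y6M replicate 1 (0.0533) or 2 (0.0559).

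Hosts that fell with their miRNA included SREBF2 (ENSBTAG00000014265), a regulator of sterol synthesis, at -1.22 ± 0.18, adjusted p = 0.000537, beside bta-miR-33a at -1.33 ± 0.30, adjusted p = 0.00507. TENM4 (ENSBTAG00000007439), a teneurin of the cell surface, was at -2.14 ± 0.24, adjusted p = 0.000182, beside bta-miR-708 at -1.05 ± 0.23, adjusted p = 0.00479. ZRANB2 (ENSBTAG00000002627), a splicing factor, was at -0.79 ± 0.22, adjusted p = 0.0127 (0.203 when scaled by library size alone), beside bta-miR-186 at -0.59 ± 0.14, adjusted p = 0.00699. The growth factor gene IGF2 (ENSBTAG00000013066) was at -1.75 ± 0.45, adjusted p = 0.0094, or -2.36 without Y18M replicate 2, beside bta-miR-483 at -1.19 ± 0.41, adjusted p = 0.0331, whose call was lost without Y18M replicate 1 or 3 or Y6M replicate 2 or 3 (0.0562 to 0.112).

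In 2 pairs the miRNA and its host were called in opposite directions. MCM7 (ENSBTAG00000030965), a subunit of the replicative helicase, was at 0.45 ± 0.16, adjusted p = 0.0329, and of the miRNAs in it bta-miR-106b was at -0.56 ± 0.17, adjusted p = 0.02, bta-miR-93 at 0.89 ± 0.24, adjusted p = 0.0132 and bta-miR-25 at -0.20 ± 0.20, adjusted p = 0.419. These miRNAs share a single transcript in human, yet bta-miR-93 rose and bta-miR-106b fell. Both MCM7 and bta-miR-106b lost their calls without Y18M replicate 3 or Y6M replicate 1 or 3 (adjusted p up to 0.113 for MCM7 and 0.16 for bta-miR-106b), and bta-miR-106b also without Y6M replicate 2 (0.0807). GPC1 (ENSBTAG00000015996), a glypican, was at -1.70 ± 0.41, adjusted p = 0.0064 and bta-miR-149-5p at 0.76 ± 0.26, adjusted p = 0.0351, whose call was lost without Y18M replicate 2 or Y6M replicate 2 (0.0663 and 0.0522).

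The condensin gene SMC4 (ENSBTAG00000005862) rose (1.39 ± 0.19, adjusted p = 0.000437). Its miRNA bta-miR-15b stood at 822, 195.2 and 389 CPM at 18 months, against 237, 206.5 and 186 CPM at 6 months (1.16 ± 0.41, adjusted p = 0.0368), with replicate 1 far above the others. Without that animal bta-miR-15b was at 0.45 and not called (adjusted p = 0.14), and leaving out any 1 of the 6-month animals also ended its call (0.0708 to 0.0896).

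**Figure D5:**
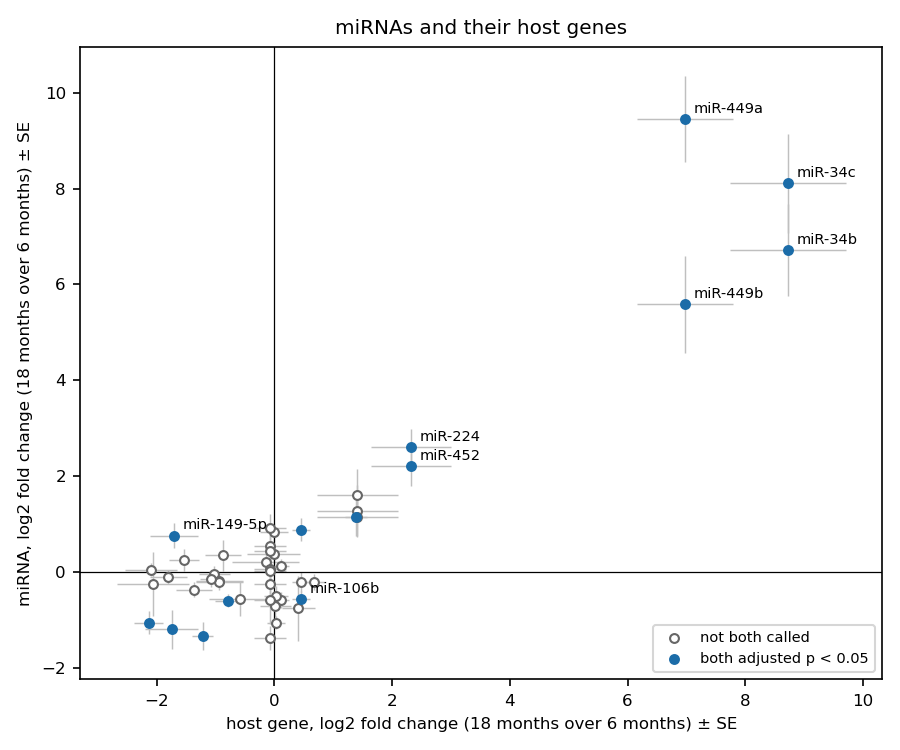
Log2 fold change (18 months over 6 months) ± SE of miRNAs against that of their single listed host gene, for 47 pairs, filled where both were called. The 4 pairs at the upper right are the miR-34 and miR-449 members with BTG4 and CDC20B, and bta-miR-149-5p and bta-miR-106b are the 2 pairs in opposite directions.

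Both arms of a hairpin were tested for 33 cattle-named hairpins. Both were higher in 2, both lower in 6, and called in opposite directions in 0, whereas in 14 a single arm was called and in 11 none. Pearson's r between the arms was 0.81 (a description across hairpins), and the median absolute difference was 0.48 on the log2 scale. The 2 hairpins that were higher in both arms stood above the rest and weigh heavily in this r, which was not computed without them. The hairpin of miR-129, known from brain, was higher in both arms. Its bta-miR-129-5p stood at 21, 54.4 and 35.2 CPM at 18 months, against 2.59, 3.06 and 0.535 CPM at 6 months (4.14 ± 0.55, adjusted p = 0.000428), beside 3.96 ± 0.52 for bta-miR-129-3p. The hairpin of miR-455, known from cartilage, was lower in both arms, with -1.87 ± 0.25 for bta-miR-455-5p and -1.29 ± 0.28 for bta-miR-455-3p. Arms could also part, as for bta-miR-503-3p at 6.27, 13.2 and 10.5 CPM at 18 months, against 51.5, 34 and 54.7 CPM at 6 months (-2.21 ± 0.31, adjusted p = 0.000522), beside -0.07 ± 0.20, adjusted p = 0.805 for bta-miR-503-5p.

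Over the 859 distinct tested sequences there were 560 seeds, of which 27 were held by at least 4 sequences. In 3 of these every member rose, those of miR-34, of miR-6526-z and of miR-222, and in 0 every member fell. Sequences that differ only at the 3′ end are counted separately, so members of a seed are not independent. Calls went in both directions within 3 seeds and in a single direction within 19, while 5 had no call. One of the mixed seeds was AAAGTGC of miR-17, miR-20, miR-93 and miR-106, with 6 of 12 higher and 1 lower. Another was AGCAGCA of miR-15, miR-16 and miR-195, with 6 of 12 higher and 2 lower, where bta-miR-16b stood at 1073, 430.5 and 661 CPM at 18 months, against 344, 328 and 304 CPM at 6 months (1.15 ± 0.28, adjusted p = 0.00734).

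A first base T, the DNA letter of the U that Argonaute proteins favour, was present in 50.4% of the 240 higher sequences, 40.3% of the 201 lower and 41.9% of the 418 not called. A length of 21 to 23 bases was present in 58.8% of the higher, 81.1% of the lower and 73.7% of those not called. In the existing class alone these shares of length were 90.5%, 86.6% and 84.2%, so the lower share among higher sequences lay in the other classes. The median GC content was 47.7%, 45.5% and 47.6%.

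The authors' deposited table for these ages holds 462 entries, 308 of them higher at 18 months and the others lower, each with an absolute log2 ratio of at least 1.00 and an unadjusted p value under 0.05. The entries called in both make up 72.9% of the deposited list and 73.7% of the 457 calls. Another 92 were removed here by the filter on low counts, and no shared entry had an opposite sign. Of the 348 calls of at least 2-fold, 96.3% were in the authors' deposited table. For bta-miR-146b the authors' deposited table gives a log2 ratio of 7.03, and for bta-miR-34c it gives 8.20.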

How the data were processed

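Testis of 9 male yaks was profiled by small RNA and by rRNA-depleted sequencing, with 3 animals each at 18 months, 6 months and 4 years. Raw counts per miRNA were deposited by the authors beside TPM values, which are scaled to a total larger than the table (its miRNAs hold 84.2 to 88.0% of it). Estimated counts per gene, deposited by the authors, held values that were not whole for 3137 of 22183 genes and were rounded. A table of the authors gives TPM means, log2 ratios and unadjusted p values for the 2 ages, per the file headers. The tools fastp 0.18.0, HISAT2 2.1.0 and StringTie 1.3.4 and the build UMD3.1 are named in the submitters' processing notes. How miRNAs were counted and named is not given in the sources used here.

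Counts of the 9 small RNA libraries were filtered with filterByExpr, scaled by TMM and tested with edgeR 4.0.16 (quasi-likelihood, R 4.3.3), with age as the single factor. The 4-year libraries entered the filter, the scaling and the spread (6 residual degrees of freedom), but not the contrast. Calls are Benjamini-Hochberg adjusted p values under 0.05. CPM and fold changes are relative to the tested pool. Genes were fitted in the same way. The fit was tested on simulated counts. DESeq2 1.42.0 and other settings were tried as alternatives. Same-numbered libraries of the 2 ages did not deviate together (r = -0.18, -0.15 and 0.07), so no block was used. Replicates differed beyond sampling noise. Named miRNAs were the 10 with the smallest p in each direction, the 10 most abundant, members of the miRNA lists, those with a listed host gene, the 3 leading unnamed sequences in each direction, and the 3 called with the smallest and the 3 not called with the largest change. Outside that rule, 16 miRNAs of near-identical pairs, of shared seeds or of opposite arms were named after their values were seen. The members and lists were chosen with earlier results of these data known.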

Additional observations from a re-analysis of the deposited data

How the results depend on the processing

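No called value of the 242 named miRNAs or of the named hosts changed sign under any setting run. For the miRNAs 180 recalculated values lost the call and 62 gained it, against 3485 that stayed on their side of the threshold, and for the hosts 41 lost it and 7 gained it. The count of 255 higher entries ranged from 218 to 275 as single animals were left out, and that of lower entries was 148 at the least. Restricting the fit to the existing class gave 109 higher and 96 lower, over 390 entries tested, which turned the balance of that class from more lower to more higher calls (86 higher and 112 lower with all entries). The median of the IGF2, H19 and MEST list, 0.78 over 4 entries, was -0.27 without the filter and -0.27 in the existing class alone. Without the filter, entries it had removed enter the median, and in the existing class alone only the 2 cattle-named entries remain. DESeq2 called 264 higher, and DESeq2 size factors in edgeR called 255. The fit on the 6 libraries alone called 153 lower. Counting each sequence once gave 269 and 174, with the median over all tested miRNAs at 0.23 in place of 0.12. The fit with the replicate number as a block called 213 higher and 177 lower, and the numbers did not pair the animals. Higher entries made up 51.1 to 61.0% of calls over all settings, against 55.8%. Depth limits entries of a few counts per library, and 47 tested entries had no count at 6 months and 2 none at 18 months. The library size is lowest in Y18M replicate 1, the animal with the largest differences, and its part in them was not tested.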
